A study of Sus scrofa with 24 samples.

Results

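Integrin, laminin and cadherin genes were followed in the veins of pigs with an arteriovenous hemodialysis graft. The genes were chosen by name: every probe of the array design whose symbol begins with ITGA, ITGB, LAMA, LAMB, LAMC or CDH and goes on in digits or capitals, except CDH5. This gave 20 gene symbols on 26 probes, of 5920 symbols on the array. They were 3 integrin alpha chains (ITGA4, ITGAL, ITGAV), 5 integrin beta chains (ITGB1, ITGB2, ITGB3, ITGB6, ITGB8) and 3 laminin alpha chains (LAMA2, LAMA3, LAMA4). The 7 cadherins were CDH1, CDH7, CDH10, CDH12, CDH13, CDH16 and CDH20, and the name rule also took in CDHR4, a cadherin-related gene, and ITGB1BP2. The array design is annotated thinly (19.8% of its 43603 probes could be given a symbol), so many chains of these families are not among the 20.

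Total RNA was taken from the venous anastomosis of the graft, from a downstream vein segment, and, as the control, from an external jugular vein. Each site was sampled at day 5 and at day 14 after graft placement in 4 biological replicates, which gave 6 groups of 4 samples. The 4 replicates stand for independent experiments, and the labels name no strain, genotype or age and do not say whether the sites or days that carry 1 replicate number are 1 animal. Every anastomosis and downstream sample was labelled with Cy5 and every control sample with Cy3, so dye and site cannot be told apart in a comparison with the control.

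Integrins are cell surface receptors made of an alpha and a beta chain, which tie the cytoskeleton to the surrounding matrix or to receptors on other cells. Laminins are basement membrane proteins made of an alpha, a beta and a gamma chain, and several integrins bind them. Cadherins join neighbouring cells through calcium-dependent contacts and hold catenins on the inner side of the membrane. In a vein wall, smooth muscle cells and endothelium lie on laminin-containing basement membranes, and leukocytes use integrins to enter the wall.

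Each probe is a 60-base oligonucleotide. The probes below carry the results that follow, and for ITGA4 and CDH7 both probes are shown because their values are compared.
LAMA2: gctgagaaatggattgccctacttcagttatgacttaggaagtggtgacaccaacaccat
LAMA3: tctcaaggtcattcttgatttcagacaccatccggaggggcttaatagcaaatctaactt
ITGB1BP2: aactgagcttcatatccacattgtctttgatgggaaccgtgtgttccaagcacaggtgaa
ITGA4 (brighter probe): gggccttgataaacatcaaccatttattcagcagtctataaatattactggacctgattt
ITGA4 (dimmer probe): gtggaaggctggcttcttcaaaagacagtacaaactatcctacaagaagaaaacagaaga
CDH7 (brighter probe): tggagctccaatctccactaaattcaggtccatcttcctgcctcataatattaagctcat
CDH7 (dimmer probe): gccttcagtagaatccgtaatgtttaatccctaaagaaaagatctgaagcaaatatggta
The 26 probes had a G and C content of 35.0% to 45.0%. Probes of different symbols shared at most 11 bases in a row on either strand (319 pairs), and the 6 pairs of probes of 1 symbol shared 5 or 6. The files give no mapped position for these probes and name no genome build, so no coordinates are given.

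Levels are log2 values of the normalised signal of each sample's own dye channel, and differences are log2 differences with their standard errors. The brightest probe stood for each symbol, and no member probe was saturated. Of the 20 genes, 16 were well above the local background in at least 4 of the 24 samples and were tested. The other 4 were dim: CDH12 and CDH20 were well above background in 0 samples, ITGB6, the beta chain of an epithelial integrin, in 1, and CDH16, a kidney cadherin, in 3. For these 4 genes no difference was detectable at this signal. Between 56.9% and 80.2% of all probes were well above background in a sample. The share was 56.9% to 73.9% in replicates 1 and 2 and 70.1% to 80.2% in replicates 3 and 4, so the ranges overlapped.

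At day 5, 4 of the 16 genes were lower at the anastomosis than in the control vein and 0 were higher: LAMA2, LAMA3, ITGB1BP2 and CDH7. Of all 33576 features tested, 19.4% passed the same threshold (adjusted p under 0.05) in this comparison, 9.09% as higher and 10.3% as lower. At day 14, 4 genes were again lower and 0 higher, namely ITGA4, LAMA2, ITGB1BP2 and CDH7, against 8.84% of all features (4.8% higher and 4.04% lower). Downstream of the anastomosis, LAMA3, ITGB1BP2 and LAMA2 were lower than in control at day 5 (3 of 16 genes, against 8.21% of all features, 3.21% higher and 4.99% lower). At day 14 downstream, 0 genes passed, against 0.923% of all features (0.649% higher and 0.274% lower). The median difference of the 16 genes was -0.01 and -0.04 at the anastomosis and -0.11 and -0.15 downstream (day 5 and day 14), and that of all features lay between 0.00 and 0.01. The plot of differences from the control vein shows the 16 genes side by side.

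**Figure D1:**
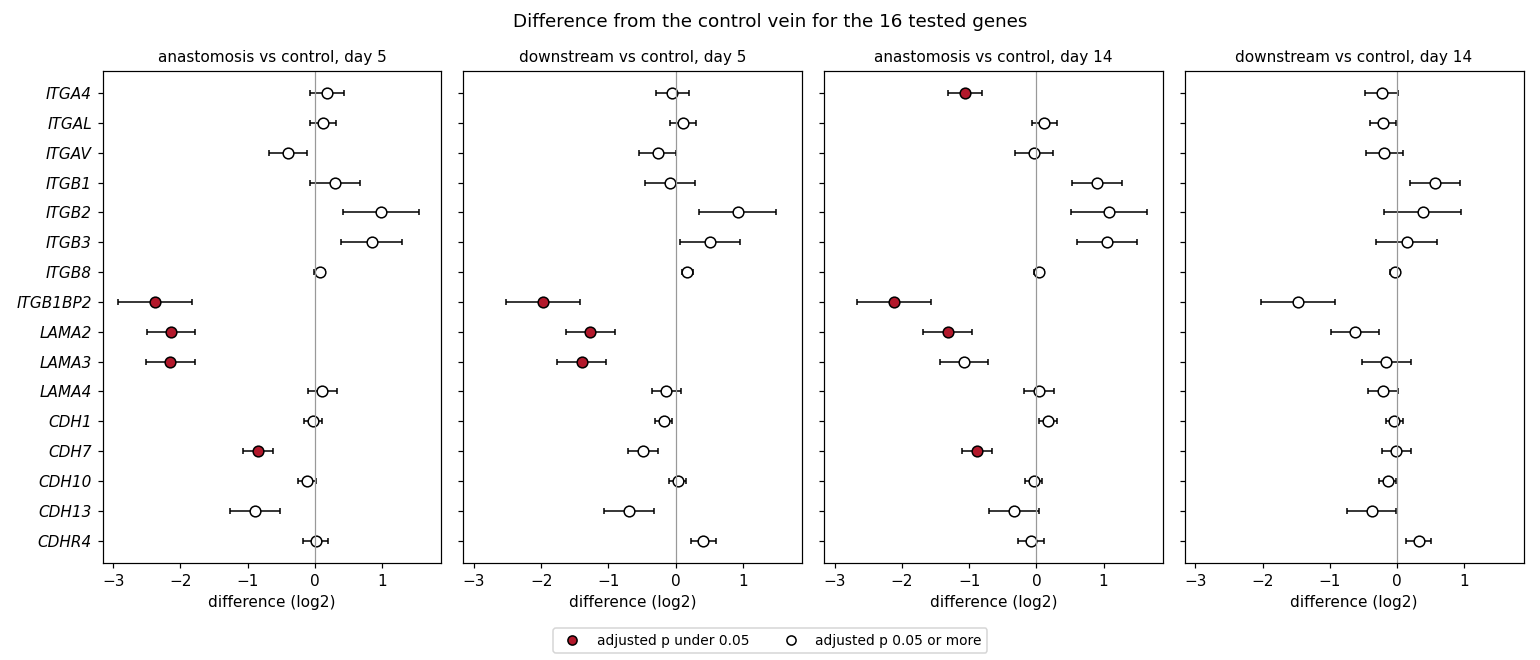
Difference from the control vein (log2, horizontal axis) for the 16 tested genes (vertical axis) in 4 comparisons; points are limma estimates, bars their standard errors, and filled points have an adjusted p under 0.05. The filled points all lie below 0, with ITGB1BP2, LAMA2 and LAMA3 the farthest at day 5, and the panel of the downstream vein at day 14 holds 0 filled points.

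LAMA2 encodes the laminin alpha chain of the basement membrane around muscle cells and Schwann cells. At day 5 its level was 6.97, 7.35, 7.15 and 7.23 in the anastomosis samples, 8.86, 8.23, 7.88 and 7.21 in the downstream samples, and 9.21, 9.78, 9.07 and 9.20 in the control samples. The anastomosis samples lay close together, every control sample lay above every sample of the other sites, and the downstream samples spread between. The anastomosis was lower than control by a difference of -2.14 ± 0.36, which is 4.4-fold (adjusted p = 0.00143, lower in 4 of 4 replicate pairs). The downstream vein differed from control by -1.27 ± 0.36 (adjusted p = 0.0427, lower in 4 of 4 pairs).

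At day 14 LAMA2 had 7.34, 8.0, 9.46 and 7.88 at the anastomosis, 8.97, 8.21, 8.72 and 9.50 downstream, and 9.07, 9.74, 9.86 and 9.27 in the control vein. Only replicate 3 of the anastomosis reached the range of the control samples. The difference of the anastomosis from control was -1.32 ± 0.36 (adjusted p = 0.0349), and that of the downstream vein was -0.63 ± 0.36 (adjusted p = 0.433). Another probe, described in the files as the laminin alpha 2 subunit by likeness to the dog gene, differed by -1.44 ± 0.28 at day 5 (adjusted p = 0.00317) and by -0.98 ± 0.28 at day 14 (adjusted p = 0.0437) between anastomosis and control. It was well above background in 2 of 4 anastomosis samples at day 5 and in 3 of 4 at day 14. Its call was lost in 2 of 15 alternatives at day 5 and in 10 of 17 at day 14. At day 14, replicate 3 of the anastomosis (7.95) lay within the control range of 7.12 to 8.25 for this probe.

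LAMA3 encodes an alpha chain best known from the basement membrane of skin and other epithelia. At day 5 its level was 8.41, 7.92, 9.10 and 9.65 at the anastomosis, 9.89, 9.06, 9.25 and 9.89 downstream, and 10.48, 9.94, 11.23 and 12.05 in the control vein. All control samples lay above all anastomosis and downstream samples. The differences from control were -2.15 ± 0.36 at the anastomosis (4.45-fold lower, adjusted p = 0.00144) and -1.40 ± 0.36 downstream (adjusted p = 0.0317), each with 4 of 4 pairs lower.

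At day 14 the control samples of LAMA3 spread widely: the gene had 7.58, 8.78, 10.37 and 8.68 at the anastomosis, 9.06, 9.33, 9.87 and 10.81 downstream, and 8.18, 9.84, 11.30 and 10.42 in the control vein. The groups overlapped, although each anastomosis sample lay below the control of its number. The anastomosis differed from control by -1.08 ± 0.36 (adjusted p = 0.0759) and the downstream vein by -0.16 ± 0.36 (adjusted p = 0.876). The change of the difference between the days did not pass for LAMA2 (0.82 ± 0.50 at the anastomosis, adjusted p = 0.731) or LAMA3 (1.07 ± 0.51, adjusted p = 0.607).

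LAMA4 encodes the laminin alpha chain of endothelial and smooth muscle basement membranes. Its level lay between 12.96 and 13.78 in the 8 anastomosis samples, between 12.87 and 13.49 in the 8 downstream samples and between 12.42 and 13.79 in the 8 control samples. The site groups overlapped on both days, and the differences from control were 0.11 ± 0.22 and 0.04 ± 0.22 at the anastomosis and -0.14 ± 0.22 and -0.21 ± 0.22 downstream at days 5 and 14 (adjusted p between 0.711 and 0.942).

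**Figure D2:**
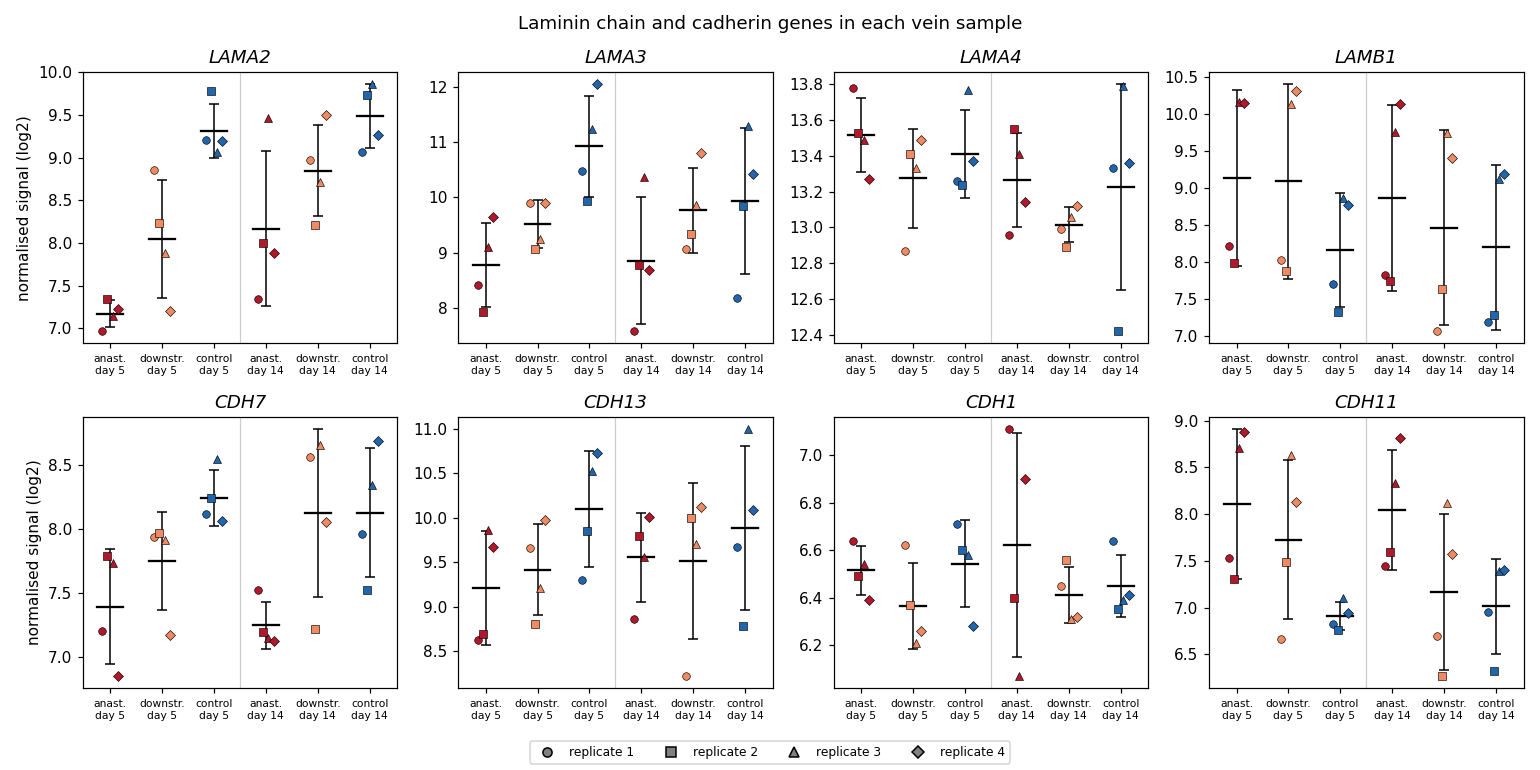
Normalised signal (log2, vertical axes, which do not start at 0) of 4 laminin chain genes and 4 cadherin genes in the 6 groups (horizontal axes); symbols mark the 4 replicates, lines the mean and bars the SD (n = 4). LAMA2 and LAMA3 at day 5 are highest in all 4 control samples, whereas LAMB1 and CDH11, which were named through RefSeq and not by the name rule, are higher at the anastomosis and differ more between replicates 1 and 2 and replicates 3 and 4.

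ITGB1BP2 encodes melusin, which binds the tail of the integrin beta 1 chain and is known from heart and skeletal muscle. At day 5 it had 7.01, 7.97, 7.29 and 6.42 at the anastomosis, 9.53, 7.28, 6.48 and 7.02 downstream, and 9.95, 10.28, 9.27 and 8.71 in the control vein. The control samples all lay above the anastomosis samples, and downstream only replicate 1 reached them. The anastomosis differed from control by -2.38 ± 0.55, or 5.2-fold (adjusted p = 0.00786, 4 of 4 pairs lower), and the downstream vein by -1.97 ± 0.55 (adjusted p = 0.0404, 4 of 4 pairs lower).

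At day 14 ITGB1BP2 had 7.51, 7.64, 6.45 and 6.22 at the anastomosis, 9.72, 7.38, 6.57 and 6.75 downstream, and 10.56, 7.63, 9.27 and 8.84 in the control vein. Replicate 2 of the control was as low as the anastomosis samples, and replicate 1 of the downstream vein was as high as the controls. The difference was -2.12 ± 0.55 at the anastomosis (adjusted p = 0.028, lower in 3 of 4 pairs) and -1.47 ± 0.55 downstream (adjusted p = 0.217).

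Mean levels of contractile smooth muscle markers were also lower than control at both sites at day 5. The list had 10 of its 15 genes on the array, and none of the 10 was below background in every sample of a group. At day 5 the mean level of the list lay between 12.05 and 13.48 at the anastomosis, between 11.85 and 13.74 downstream and between 14.37 and 15.16 in the control vein, and 8 of the 10 genes were lower at the anastomosis and 4 downstream (2 and 1 with median centring). At day 14 it lay between 12.47 and 12.77 at the anastomosis, between 12.10 and 13.72 downstream and between 11.69 and 15.06 in the control vein, with 0 of the 10 genes past the threshold. The downstream maximum was replicate 1 on both days and the control minimum at day 14 was replicate 2, the samples in which ITGB1BP2 also stood apart. The laminins did not stand apart in that control sample (LAMA2 at 9.74 and LAMA3 at 9.84). Downstream replicate 1 had the highest LAMA2 (8.86) and shared the highest LAMA3 (9.89) at day 5. At day 14 it had the lowest LAMA3 (9.06), with LAMA2 at 8.97. In whole vein, fewer cells of a type and less RNA per cell cannot be told apart, and the part of these markers in the results was not tested.

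Of 9 skeletal muscle markers on the array, 3 were lower at the anastomosis than in control at day 5 and 2 at day 14. Their mean level was 6.80 to 7.11 at the anastomosis and 7.17 to 7.69 in the control vein at day 5. Schwann cell and epithelial markers (4 genes each) held 0 genes past the threshold in the 4 comparisons with control. Their part in the laminin results was likewise not tested. Mean levels of 9 adipocyte markers stood apart at day 14 in replicate 3 of the anastomosis (14.08, with 9.73 to 10.48 in the other 3), replicates 2 and 4 of the downstream vein (13.86 and 12.89) and replicate 2 of the control vein (14.43, with 8.97 to 10.36 in the other 3). Without that anastomosis sample, the day 14 difference of LAMA3 from control was -1.34 (adjusted p = 0.04), and the difference of CDH7 was -0.73 (adjusted p = 0.0677). Without that control sample, the difference of LAMA2 was -1.10 (adjusted p = 0.0887).

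Within batches, the laminin differences at day 5 kept their sign. Replicates 1 and 2, whose scans were read with an earlier protocol of the feature extraction software than those of replicates 3 and 4, gave -2.33 for LAMA2 and -2.04 for LAMA3 between anastomosis and control (adjusted p = 0.0891 and 0.0769). Replicates 3 and 4 gave -1.94 and -2.26 (adjusted p = 0.0591 and 0.0472). Neither gene lost its call at the anastomosis at day 5 when any 1 replicate was left out, but the call of ITGB1BP2 was lost without replicate 4 (-2.41, adjusted p = 0.0739).

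ITGA4, the alpha 4 integrin chain, is known for binding the vascular receptor VCAM1 and fibronectin on leukocytes. At day 5 its sites did not separate: it had 9.41, 9.22, 8.84 and 8.54 at the anastomosis, 8.84, 8.85, 8.66 and 8.74 downstream, and 9.0, 9.62, 8.72 and 7.94 in the control vein. At day 14 it had 8.27, 8.23, 7.69 and 8.33 at the anastomosis, 9.08, 8.52, 9.37 and 8.87 downstream, and 9.0, 9.66, 9.12 and 8.98 in the control vein. All 4 anastomosis samples of day 14 lay below every downstream and control sample of that day. The difference of the anastomosis from control at day 14 was -1.06 ± 0.25, or 2.08-fold (adjusted p = 0.0184, lower in 4 of 4 pairs), against 0.18 ± 0.25 at day 5 (adjusted p = 0.694).

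The change of that difference from day 5 to day 14 was -1.24 ± 0.35, which did not pass (unadjusted p = 0.0029, adjusted p = 0.412). Against the downstream vein the day 14 difference of ITGA4 was -0.83 ± 0.25 (adjusted p = 0.181). Within the anastomosis, day 14 lay below day 5 in every sample, with a difference of -0.87 ± 0.23 (adjusted p = 0.367); in the authors' value table the same comparison gave -0.95 (adjusted p = 0.0398). The dimmer probe of ITGA4 differed by -0.80 between anastomosis and control at day 14 and by 0.56 at day 5. The leukocyte marker list (6 genes on the array) had a mean level of 10.80 to 12.20 at the anastomosis and 10.01 to 11.63 in the control vein at day 14, with 1 gene higher and 0 lower. Markers of T and NK cells had 2 of 10 genes higher and 0 lower.

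The other alpha chains did not pass in any comparison. ITGAL, which pairs with ITGB2 on leukocytes, lay between 6.99 and 8.18 over the 24 samples, and its difference from control was 0.12 ± 0.19 at the anastomosis on both days. ITGAV, the alpha chain of the vitronectin receptors, had 12.79, 12.69, 11.91 and 11.75 at the anastomosis, 13.58, 12.45, 11.92 and 11.73 downstream, and 13.41, 13.04, 12.22 and 12.08 in the control vein at day 5. Its replicates 1 and 2 were higher than replicates 3 and 4 in every site, and the difference of the anastomosis from control was -0.40 ± 0.28 (adjusted p = 0.379).

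**Figure D3:**
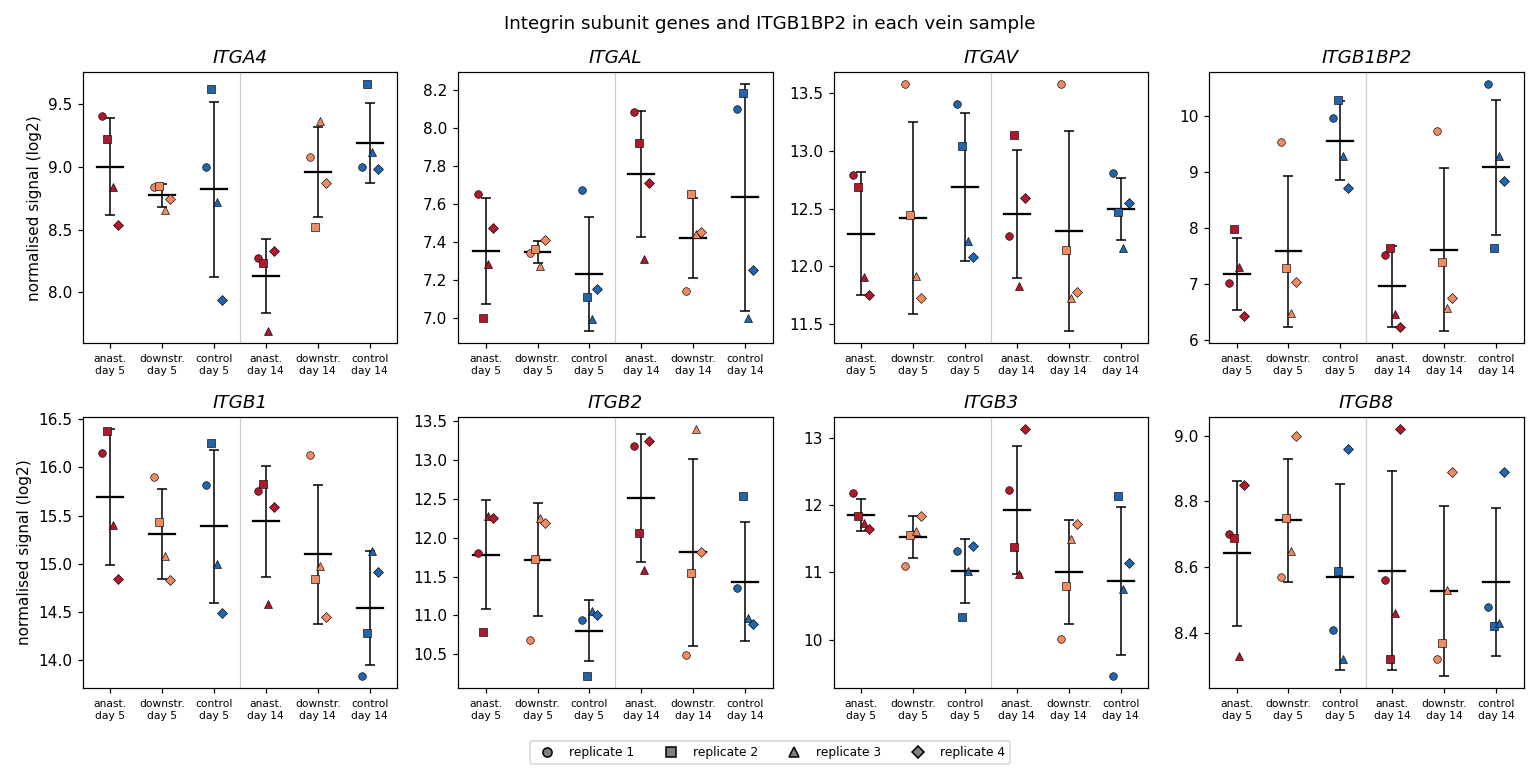
Normalised signal (log2, vertical axes, which do not start at 0) of 7 integrin chain genes and ITGB1BP2 in the 6 groups (horizontal axes); symbols mark the 4 replicates, lines the mean and bars the SD (n = 4). Among the samples of day 14, ITGA4 is lowest in the 4 anastomosis samples, and ITGB1BP2 is high in the control samples apart from replicate 2 at day 14 and in replicate 1 of the downstream vein.

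The integrin beta chains had positive differences at the anastomosis in all 4 tested genes on both days, but 0 passed the threshold, and ITGB8 at day 14 ran from -0.03 to 0.52 over the scalings tried. ITGB2, the common beta chain of leukocyte integrins, had 11.80, 10.78, 12.28 and 12.26 at the anastomosis, 10.68, 11.73, 12.26 and 12.19 downstream, and 10.94, 10.22, 11.05 and 11 in the control vein at day 5. At day 14 it had 13.18, 12.06, 11.58 and 13.24 at the anastomosis, 10.49, 11.55, 13.40 and 11.81 downstream, and 11.35, 12.54, 10.96 and 10.89 in the control vein. Every anastomosis sample of day 5 lay above the control of its number, but the groups overlapped on both days. The differences of the anastomosis from control were 0.98 ± 0.57 (adjusted p = 0.277) and 1.08 ± 0.57 (adjusted p = 0.26). The dimmer probe of ITGB2 gave 0.25 and 0.32.

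ITGB3, the beta chain of the platelet fibrinogen receptor and of a vitronectin and osteopontin receptor, had 12.18, 11.84, 11.74 and 11.65 at the anastomosis, 11.10, 11.55, 11.62 and 11.83 downstream, and 11.31, 10.34, 11.02 and 11.39 in the control vein at day 5. The anastomosis samples all lay above the control samples, with a difference of 0.84 ± 0.45 (adjusted p = 0.235). At day 14 it had 12.22, 11.37, 10.98 and 13.13 at the anastomosis, 10.01, 10.80, 11.50 and 11.72 downstream, and 9.46, 12.13, 10.75 and 11.14 in the control vein. The groups overlapped there, with a difference of 1.05 ± 0.45 (adjusted p = 0.163). Without replicate 2 of the control at day 14, the adipocyte-high sample, this difference was 1.60 (adjusted p = 0.0247). Over the 17 alternatives tried it ran from 0.48 to 1.74, and 14 of them left it short of the threshold.

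ITGB1, which pairs with most collagen, laminin and fibronectin binding alpha chains, had 16.15, 16.38, 15.40 and 14.84 at the anastomosis, 15.90, 15.44, 15.08 and 14.83 downstream, and 15.82, 16.25, 15.00 and 14.49 in the control vein at day 5. At day 14 it was 15.76, 15.83, 14.59 and 15.59 at the anastomosis, 16.13, 14.84, 14.98 and 14.45 downstream, and 13.84, 14.28, 15.13 and 14.92 in the control vein. Replicates 1 and 2 of the day 14 control were low. The differences of the anastomosis from control were 0.30 ± 0.37 (adjusted p = 0.657) and 0.90 ± 0.37 (adjusted p = 0.144). The second and dimmer probe gave 0.52 and 1.04. By replicate pair the day 14 differences were 1.92, 1.55, -0.54 and 0.67. Without replicate 3 of the anastomosis at day 14, the difference on that day was 1.26 (adjusted p = 0.0412). Over the 17 alternatives tried it ran from 0.06 to 1.88, and 15 of them left it short of the threshold. ITGB8, which pairs with ITGAV, lay between 8.32 and 9.02 over the 24 samples and differed from control by 0.07 ± 0.08 and 0.04 ± 0.08.

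The calls for the beta chains depended on the scaling within arrays and on the samples in the fit. With only the anastomosis and control samples of day 5 in the fit, ITGB1, ITGB2 and ITGB3 were higher at the anastomosis at the same differences (adjusted p = 0.0339, 0.00481 and 0.0271); at day 14 the same change left them at an adjusted p of 0.332 to 0.444. With each array centred on its median in place of a loess curve, the differences of the anastomosis from control were 1.52 at day 5 and 1.88 at day 14 for ITGB1 (adjusted p = 0.0164 and 0.00457). For ITGB2 they were 1.68 and 1.81 (adjusted p = 0.0288 and 0.0177), and for ITGB3 1.55 and 1.74 (adjusted p = 0.0191 and 0.00944). Under that scaling the median of all features shifted to 0.102 and 0.163. The count of members at the anastomosis was then 6 higher and 3 lower at day 5 and 7 higher and 1 lower at day 14. Of all 33576 features, 8934 were then higher and 2127 lower at day 5, and 10329 and 3477 at day 14. Downstream at day 14, 3 members were higher (ITGB1, ITGB8 and CDHR4), against 7891 of all features higher and 2296 lower. ITGB8, LAMA4 and CDHR4 were among the higher genes at the anastomosis on both days. Under the other 4 scalings 0 members were higher than control in any of the 4 comparisons. Downstream at day 5, median centring gave 2 higher (ITGB8 and CDHR4) and 1 lower (ITGB1BP2), in place of 0 higher and 3 lower. Of all 33576 features, 7204 were then higher and 1457 lower.

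Median centring also ended 6 of the 11 calls of lower genes, with the sign kept. At the anastomosis these were CDH7 at day 5 (-0.54, adjusted p = 0.116) and, at day 14, CDH7 (-0.57, adjusted p = 0.0863), ITGA4 (-0.55, adjusted p = 0.0887) and LAMA2 (-0.83, adjusted p = 0.0774). Downstream at day 5 they were LAMA2 (-0.90, adjusted p = 0.0765) and LAMA3 (-0.91, adjusted p = 0.091). The other 5 calls held under all 5 scalings: LAMA2, LAMA3 and ITGB1BP2 at the anastomosis at day 5 (LAMA2 at -2.94 to -1.76 and LAMA3 at -2.39 to -1.61), and ITGB1BP2 at the anastomosis at day 14 and downstream at day 5.

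**Figure D4:**
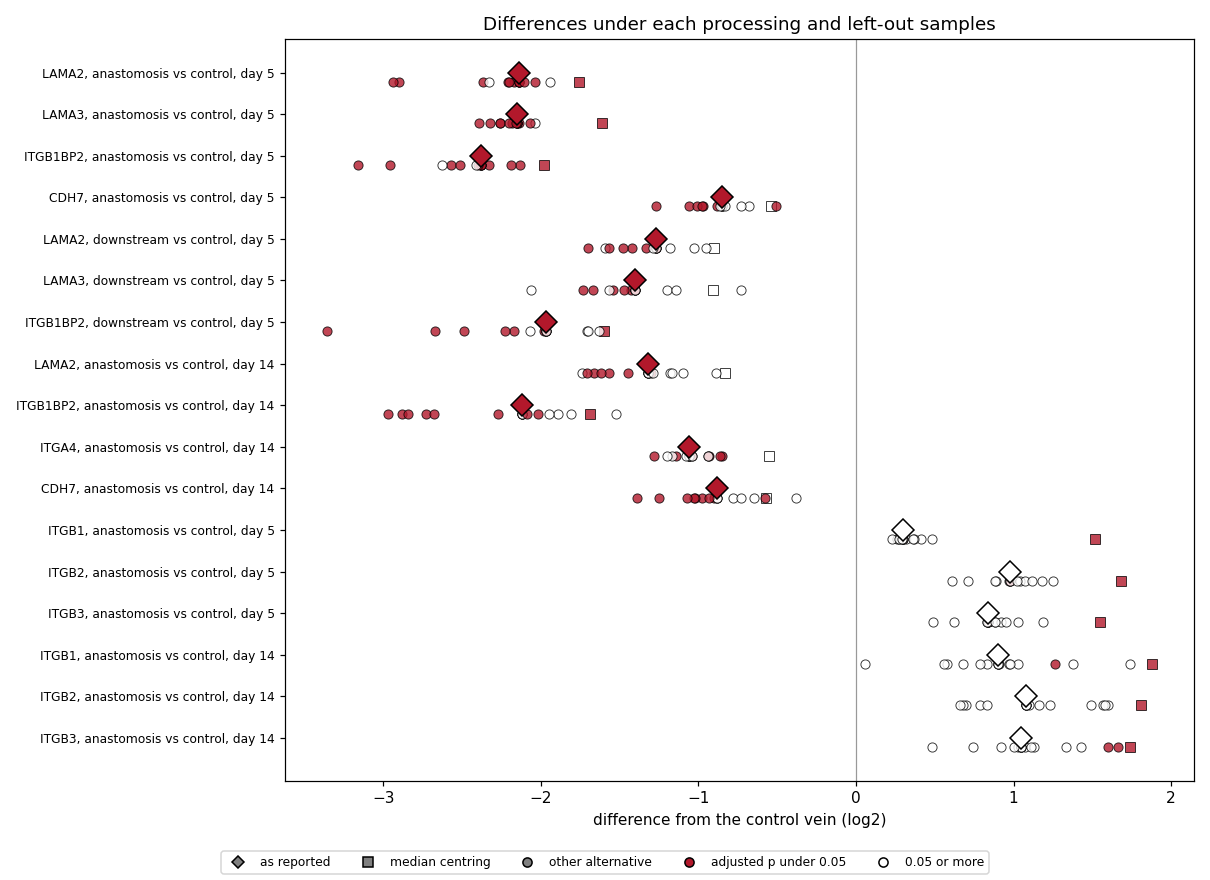
Difference from the control vein (log2, horizontal axis) for the called genes and for ITGB1, ITGB2 and ITGB3 (vertical axis), as reported (diamonds), with median centring (squares) and under each other alternative (circles); filled symbols have an adjusted p under 0.05. No value crosses 0; median centring moves every difference to the right, and the squares of the 3 integrin beta chains are filled.

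CDH7, a cadherin known mainly from the nervous system, was lower at the anastomosis on both days. It had 7.20, 7.79, 7.73 and 6.85 at the anastomosis, 7.94, 7.97, 7.91 and 7.17 downstream, and 8.12, 8.24, 8.55 and 8.06 in the control vein at day 5. At day 14 it had 7.52, 7.19, 7.15 and 7.12 at the anastomosis, 8.56, 7.22, 8.66 and 8.05 downstream, and 7.96, 7.52, 8.34 and 8.69 in the control vein. Each anastomosis sample lay below the control of its number, and at day 14 the lowest control equalled the highest anastomosis sample to the second decimal. The differences from control were -0.85 ± 0.22 (1.8-fold, adjusted p = 0.0157) and -0.88 ± 0.22 (1.85-fold, adjusted p = 0.0258). The dimmer probe of CDH7, well above background in 8 of the 24 samples, gave -0.18 and -0.27. The day 5 call was lost without replicate 1, 3 or 4 (-0.83, -0.86 and -0.73, adjusted p = 0.0602, 0.0655 and 0.0962) and with no replicate block (adjusted p = 0.094).

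CDH13, an endothelial and smooth muscle cadherin held in the membrane by a lipid anchor, had 8.62, 8.69, 9.86 and 9.67 at the anastomosis, 9.66, 8.81, 9.21 and 9.98 downstream, and 9.30, 9.85, 10.53 and 10.73 in the control vein at day 5. Each anastomosis sample lay below the control of its number, but the groups overlapped, and the difference was -0.89 ± 0.37 (adjusted p = 0.116, or 0.00333 with only these samples in the fit). At day 14 its difference was -0.33 ± 0.37. CDH1, the epithelial cadherin, was dim, at 6.07 to 7.11 and well above background in 18 of the 24 samples, and CDH10 lay between 6.61 and 7.47; neither passed in any comparison. CDHR4 lay at 8.46 to 10.07. At day 14 its 4 downstream samples (9.36 to 9.66) lay above its 4 anastomosis samples (8.76 to 9.27), with a difference of the anastomosis from downstream of -0.40 ± 0.19 (adjusted p = 0.35).

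The calls at the anastomosis at day 14 and in the downstream vein at day 5 rested on the replicate block and on single replicates. With no replicate block, 0 of the 4 genes passed at the anastomosis at day 14 (adjusted p between 0.0541 for ITGA4 and 0.152 for ITGB1BP2), and 0 of the 3 genes downstream at day 5 (adjusted p between 0.109 and 0.38). Without replicate 4, 0 genes passed at the anastomosis at day 14; without replicate 1, 1 passed (CDH7), and without replicate 3, 1 passed (LAMA2). Downstream at day 5, 0 passed without replicate 2, 3 or 4.

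The anastomosis and the downstream vein, both in Cy5, were also compared directly. Among the 16 genes 0 passed on either day, and 0% of all features did. At an unadjusted p under 0.05 there were 2 members at day 5 and 4 at day 14, among them ITGA4 and CDH7 (-0.88 ± 0.22, adjusted p = 0.152). The share of all features at an unadjusted p under 0.05 was not computed. These counts and those below at that threshold therefore do not show whether the members differ from the rest of the array. From day 5 to day 14, 0 members changed at the anastomosis (0.00596% of all features, 0.00298% higher and 0.00298% lower), downstream or in the control vein (0% each), with 2, 0 and 0 at an unadjusted p under 0.05. The change of the difference from control between the days passed for 0 members at either site (0% of all features), with 1 member each at an unadjusted p under 0.05: ITGA4 at the anastomosis and LAMA3 downstream (1.23 ± 0.51, adjusted p = 0.656). In the authors' value table LAMA2 was higher at day 14 than at day 5 within the anastomosis (1.75, adjusted p = 0.0278), against 0.99 ± 0.40 (adjusted p = 0.539) in the normalised scanner values.

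A further 29 probes carry a family name only in their description or through a RefSeq accession and so stand outside the name rule; 25 of them were tested. At the anastomosis 6 were higher and 3 lower than control at day 5, and 5 higher and 1 lower at day 14. Of all features, 9.09% were higher and 10.3% lower there at day 5, and 4.8% and 4.04% at day 14. Downstream, 2 of these probes were higher at day 5 and 0 passed at day 14. The shares of all features downstream were 3.21% higher and 4.99% lower at day 5, and 0.649% and 0.274% at day 14. LAMB1, a laminin beta chain of vascular basement membranes, had 8.22, 7.99, 10.16 and 10.15 at the anastomosis, 8.03, 7.88, 10.13 and 10.31 downstream, and 7.70, 7.33, 8.87 and 8.77 in the control vein at day 5. Replicates 3 and 4 were brighter than replicates 1 and 2 in each site, and within each number the control was the lowest. The differences from control were 0.96 ± 0.18 at the anastomosis (adjusted p = 0.00227) and 0.92 ± 0.18 downstream (adjusted p = 0.0105) at day 5, and 0.67 ± 0.18 at the anastomosis at day 14 (adjusted p = 0.0317).

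A second probe, described as the laminin B1 protein by likeness to cattle, differed at the anastomosis by 0.65 ± 0.14 (adjusted p = 0.00541) and 0.49 ± 0.14 (adjusted p = 0.0422). Its call was lost in 4 of 15 alternatives at day 5 and in 9 of 17 at day 14. LAMB1 and LAMA2 had differences of opposite sign at the anastomosis. With no replicate block the LAMB1 call was lost on both days (adjusted p = 0.669 and 0.919). Replicates 1 and 2 alone gave 0.59 at day 5 (adjusted p = 0.18) and replicates 3 and 4 alone gave 1.34 (adjusted p = 0.0105).

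CDH11, a cadherin of mesenchymal cells, had 7.53, 7.31, 8.71 and 8.88 at the anastomosis, 6.66, 7.49, 8.63 and 8.13 downstream, and 6.83, 6.76, 7.10 and 6.94 in the control vein at day 5. All anastomosis samples lay above all control samples. The difference was 1.20 ± 0.26 at day 5 (adjusted p = 0.0058) and 1.03 ± 0.26 at day 14 (adjusted p = 0.0263). A second probe described as cadherin 11 gave 1.76 ± 0.34 (adjusted p = 0.00282) and 1.51 ± 0.34 (adjusted p = 0.0159). The call of that second probe was lost in 3 of 15 alternatives at day 5 and in 5 of 17 at day 14. In the control vein CDH11 was well above background in 2 of 4 samples on each day. With no replicate block the CDH11 call was lost (adjusted p = 0.134 and 0.338), and replicates 1 and 2 alone gave 0.62 at day 5 against 1.78 in replicates 3 and 4.

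A probe for a gene described as integrin alpha-6-like, a laminin receptor chain, was higher at the anastomosis by 0.81 ± 0.22 at day 5 (adjusted p = 0.0179) and 0.94 ± 0.22 at day 14 (adjusted p = 0.0185). Downstream at day 5 it was higher by 0.78 ± 0.22 (adjusted p = 0.0411). Another probe, described as the integrin alpha 6 chain by likeness to macaque, was dim, well above background in 3 of 4 anastomosis and 1 of 4 control samples at day 5 and in 2 of 4 of each at day 14, and differed by 0.15 ± 0.10 and 0.09 ± 0.10. A probe described as cadherin-2 was dim, well above background in 2 of 4 anastomosis samples and 1 of 4 control samples at day 5. It had 6.55, 6.32, 7.29 and 7.27 at the anastomosis and 6.37, 6.20, 6.26 and 6.52 in the control vein, so replicates 3 and 4 were the ones that stood apart, with a difference of 0.52 ± 0.16 (adjusted p = 0.0322). CDH19, a cadherin of Schwann cells, was well above background in 0 of 4 anastomosis samples and 4 of 4 control samples at day 5. Its mean was 6.21 at the anastomosis and 7.35 in the control vein, a difference of -1.14 or 2.2-fold (adjusted p = 0.0201). A bound was also computed with, in each anastomosis sample, the higher of the probe's own signal and the lowest signal of any probe well above background. It gave the same 2.2-fold, so this value is an estimate and no lower limit. With 0 anastomosis samples well above background, the size of the difference is uncertain. Of 2 probes described as integrin alpha-E, 1 was lower at day 5 (-0.58 ± 0.15, adjusted p = 0.0159) and the other, well above background in 2 of 4 samples of each of these groups, gave -0.07 ± 0.13 (adjusted p = 0.773).

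Among ligands and partners of these receptors, matrix ligands of integrins had 4 of 14 tested genes higher and 1 lower at the anastomosis at day 5, and 4 higher at day 14. They included IBSP, bone sialoprotein (5.08 ± 1.07, adjusted p = 0.00483), and SPP1, osteopontin (4.53 ± 1.06, adjusted p = 0.00859), at day 5, and POSTN, periostin (2.95 ± 0.48, adjusted p = 0.00388), at day 14. In the control vein 2 of 4 samples had IBSP well above background, and its difference ran from 5.40 to 8.45 under the 5 other scalings. Downstream, 1 ligand (SPP1) was higher at day 5 and 0 at day 14. With median centring 7 ligands were higher and 0 lower at day 5, and 11 and 0 at day 14. Of all 33576 features, 8934 were then higher and 2127 lower at day 5, and 10329 and 3477 at day 14. The partner counts under median centring given below for day 5 are to be read against the same features. All other counts of partner and marker genes are to be read against the shares of all features given above for each comparison. The ligand list's median difference at the anastomosis was 0.02 at day 5 and 0.78 at day 14. Receptors that leukocyte integrins bind had 3 of 12 genes higher at the anastomosis at day 5 and 1 at day 14, with 2 and 0 downstream. ICAM2, a ligand of the ITGAL and ITGB2 pair on endothelium, differed by 1.37 ± 0.26 (adjusted p = 0.00294) and 1.31 ± 0.26 (adjusted p = 0.00998) at the anastomosis. MADCAM1, a ligand of alpha 4 integrins, differed by 3.04 ± 0.61 at day 5 (adjusted p = 0.00362).

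Inside the cell, focal adhesion genes had 1 of 10 higher and 4 lower at the anastomosis at day 5 and 0 higher and 4 lower downstream, and at day 14 PTK2B alone was lower at both sites (-0.44 at the anastomosis and -0.53 downstream, against 0.24 and 0.08 with median centring). CAV1, the coat protein of caveolae, differed by -0.95 ± 0.20 (adjusted p = 0.00427) and FERMT1, a kindlin that activates integrins, by 2.20 ± 0.56 (adjusted p = 0.0139) at the anastomosis at day 5. The list's median of -0.45 there turned to 0.28 under median centring, with 4 genes higher and 0 lower, and CAV1 then differed by 0.29, so the direction of this list depended on the scaling. Among 6 tested basement membrane partners, 2 were lower at the anastomosis on both days, SGCD, a sarcoglycan of muscle (-1.74 ± 0.31, adjusted p = 0.00201 at day 5), and COL4A5 (-1.75 ± 0.45, adjusted p = 0.0147). Under median centring, 2 of the 6 were higher and 1 (SGCD) lower at day 5. Among 11 catenin and junction genes, 1 was higher and 3 lower at the anastomosis at day 5, and 0 and 1 at day 14. CTNND1, the p120 catenin, differed by 0.60 ± 0.12 (adjusted p = 0.00435) and CTNNA2 by -2.63 ± 0.61 (adjusted p = 0.0082) at day 5. Endothelial markers had 5 of 10 genes higher at the anastomosis at day 5 and 4 at day 14. Macrophage markers had 4 of 10 higher there on both days. Both marker lists had 0 genes lower, and their part in the results of these lists was not tested.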

How the data were processed

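Per the labels, RNA was labelled for 2-colour Agilent arrays; the deposited scanner files hold intensity values of the mean foreground and local background per spot, and processed intensity values, per the file headers. The authors' deposited value table holds log2 values, made by a method that no source used here gives; its columns (medians 7.34 to 7.42) correlated at 0.922 to 0.959 with the values computed here. Signals were corrected with normexp (offset 50), normalised by loess within and Aquantile between the 16 arrays, and split by dye into 24 samples with limma 3.58.1 (R 4.3.3). The control and anastomosis samples of 1 number and day shared an array. The downstream sample was on another, so a downstream and control pair spans different arrays. The Cy3 channel of the 8 downstream arrays has no sample in the labels and entered the normalisation only. Control spots and outlier spots were left out. Symbols came from the files and from RefSeq tables. Sites were compared in 1 limma model (lmFit, eBayes) of the 24 samples, in which each replicate number of a day was a block (8 blocks); days were compared within a site with no block. Same-numbered samples of a day correlated in their deviations from the group means (0.22 to 0.82 on an array, 0.19 to 0.76 across arrays). Samples of 1 site and number from different days correlated too (0.073 to 0.62, with 11 of 12 pairs over 0.1). The day comparisons did not model this, and with replicate number as a block 0 members passed in them. P-values are two-sided, adjusted by Benjamini-Hochberg over 33576 features. The fit was also run on simulated data. These held no effect of dye, feature extraction protocol or scaling, so that run cannot speak to those. The replicates' spread and the number of arrays limit precision. In each comparison all members past the threshold are named, with sample values for up to 5 per family; partner lists are given by counts and up to 3 genes. The members, lists and alternatives were chosen with earlier results of these data known.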

Additional observations from a re-analysis of the deposited data

Results flagged for a closer look

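In 5 of 96 groups of member values 1 sample lay far from the other 3 (Dixon's test, n = 4), where chance gives about 4.8. These were ITGA4 in the anastomosis at day 14 (replicate 3, 7.69), CDH10 in the same sample (6.73), CDH7 in the downstream vein at day 5 (replicate 4, 7.17), ITGB2 in the control vein at day 5 (replicate 2, 10.22) and ITGB8 in the control vein at day 14 (replicate 4, 8.89). The sample of the first pair is the anastomosis sample with high adipocyte markers.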

How the results depend on the processing

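Of the recomputed counts of members past the threshold, 156 stayed within 1.5 times of the reported count and 21 did not; the cause was not tested. At the anastomosis at day 5 the count of 4 was 9 with median centring and 9 with only the samples compared in the fit, 0 in replicates 1 and 2 alone, and 2 to 4 with 1 replicate left out (2 without replicate 4). At day 14 the count of 4 was 8 with median centring, 0 with only the samples compared, 0 with no replicate block, 0 in replicates 1 and 2 alone and 2 in replicates 3 and 4 alone. It was 0 to 4 with 1 replicate left out, and the 4 without replicate 2 were 1 higher and 3 lower in place of 4 lower. Downstream at day 5 the count of 3 was 0 with no replicate block, 0 in replicates 1 and 2 alone, 1 in replicates 3 and 4 alone and 0 to 3 with 1 replicate left out; with median centring it was again 3, but 2 higher and 1 lower in place of 3 lower. Downstream at day 14 the count of 0 was 3 with median centring and 1 in replicates 3 and 4 alone. For day 14 against day 5 at the anastomosis the count of 0 was 2 in the authors' value table. Beyond these, the replicate block moved no count by over 1.5 times. Of the recomputed differences of the called members, ITGB1, ITGB2, ITGB3, CDH13, LAMB1, CDH11 and 4 described probes, 384 kept their side of the threshold, 125 lost the call, 16 gained it and 0 changed sign. Over all 16 members in the 4 comparisons with control, 21 of 64 differences took the other sign under at least 1 scaling, 0 of them called; of 86 called differences of partner and marker genes 7 did, those of CAV1, PTK2B and PCDH18. Median centring raised the share of higher calls among all features to 80.8% (47% as reported) and 74.8% (54.3%) at the anastomosis at day 5 and day 14, and to 83.2% (39.1%) downstream at day 5. Downstream at day 14 the authors' value table gave 51.2% (70.3% as reported). Under median centring the medians of all features were 0.113 and 0.194 downstream. Leaving out replicate 3 of the anastomosis at day 14 was chosen after seeing the data. Dim probes limit what can be said of CDH1, CDH12, CDH16, CDH20 and ITGB6.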
